A study of Mus musculus with 4 samples.

Results

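The comparison described here is that of the colon of an untreated mouse lacking Adamts12 with the colon of an untreated wild-type mouse, across every gene read by a probe set assigned to 1 gene. It takes 2 of the 4 arrays in the series, those titled Adamts12 KO untreated and Adamts12 WT untreated. Of 45101 probe sets, 34945 were assigned to 1 gene, and 21121 of these lay above the median of their array on at least 1 of the 4 arrays. They stood for 12189 genes, each represented by the probe set that was brightest on average.

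Every array was made from total RNA that the labels assign to the distal colon of 1 mouse, genotyped as Adamts12 WT or Adamts12 KO. Both mice compared here had received no treatment, and the other 2 mice, 1 of each genotype, had drunk 2% dextran sodium sulfate (DSS), which damages the lining of the colon. The series text gives 7 days of DSS and the treatment protocol 8, each with 1 day off it, and the protocol gives an age of 8 to 10 weeks at the start. Strain, sex, litter and the way in which Adamts12 was disrupted are not given in the sources used here. With 1 array on each side, no spread between mice could be measured, so all values below are descriptions of these arrays, with no test. Genotype, individual mouse and the piece of colon sampled cannot be told apart in this comparison.

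Adamts12 encodes a secreted metalloprotease with thrombospondin repeats that cleaves matrix proteins of cartilage and other connective tissue. The colon is patterned along its length: Hox genes at the 5′ end of their clusters are active towards the anus, and the epithelium changes with them. The proximal colon and caecum are known for enzymes that modify drugs and steroids and for bile acid export. The distal colon is known for sodium uptake, for potassium and proton exchange and for its own set of mucus genes and gut hormones.

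Values are log2 levels on an array, and a difference is the KO value minus the WT value on that scale, so that 1 is 2-fold. Sets of 4 values are given in the order untreated WT, untreated KO, WT DSS, KO DSS. The brighter Adamts12 probe set read 2.18, 1.42, 2.18 and 1.41. Its other probe set read 0.97, 0.71, 0.71 and 0.84. Both were dim and were removed by the filter. Values at or below 1.68, the highest reading of 10 Y-linked probe sets on arrays that all had bright Xist signals (8.95 and 10.06 on 2 Xist probe sets of the untreated KO array), were read as not above background, and for these the difference is printed as "at least" a value. By that limit the brighter Adamts12 probe set was above background on both WT arrays and on neither KO array. Its difference without DSS, nominally -0.76, is therefore not a measured value. The other Adamts12 probe set was not above background on any of the 4 arrays. The part of the gene that these probe sets cover relative to the disrupted part is not known.

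The tissue label was set against markers of position. On the array labelled Adamts12 KO untreated, some defining genes of the distal colon were low while they were bright on the other 3 arrays. Hoxb13, a homeobox gene of the hindmost gut, read 9.47, 2.48, 7.84 and 8.4. Sval1, a secreted seminal vesicle antigen-like protein, read 10.69, 2.73, 8.72 and 8.55. Atp12a, the catalytic subunit of the colonic proton and potassium pump, read 10.39, 3.54, 9.66 and 9.50. For these genes the untreated KO array lay apart from the other 3, and the KO DSS array read close to the WT DSS array. Other listed distal genes did not share this, among them Pyy, Scnn1b, Muc4, Slc6a14 and B4galnt2. The 3 genes shown are among the 25 lowest differences of this comparison, and their list was drawn up with earlier results known, so they describe how that array departs from the others given the same tissue label and are no independent check of it.

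Of the 12189 genes, 418 were at least 2-fold higher on the untreated KO array (3.43%) and 730 at least 2-fold lower (5.99%). At 4-fold the counts were 102 (0.837%) and 144 (1.18%), at 8-fold 38 and 45, at 16-fold 20 and 20, and at 32-fold 12 and 10. The median difference was -0.01, with the 5th and 95th percentiles of genes at -1.09 and 0.81. Other probe sets of the same genes mostly lay on the same side. Of 145 higher genes with more than 1 kept probe set, 138 had all others above 0 (95.2%), and of 311 such lower genes 262 had all others below 0 (84.2%). A second probe set at least 2-fold the opposite way was found for 0 of the higher genes and 1 of the lower genes.

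The untreated KO array was the array most often apart from the rest. It lay at least 2-fold above all of the other 3 for 222 genes (1.82%) and at least 2-fold below them for 192 (1.58%). The untreated WT array did so for 178 (1.46%) and 34 (0.279%) genes, the WT DSS array for 20 (0.164%) and 18 (0.148%) and the KO DSS array for 226 (1.85%) and 57 (0.468%). Among the 730 lower genes, the untreated KO array was the lowest of the 4 for 579 (79.3%), against 32.8% of all genes, and the untreated WT array was the highest for 484 (66.3%). Among the 418 higher genes, the untreated KO array was the highest of the 4 for 370 (88.5%), against 28.7% of all genes. Choosing genes by the untreated pair favours these shares, so they are given as a description.

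**Figure D1:**
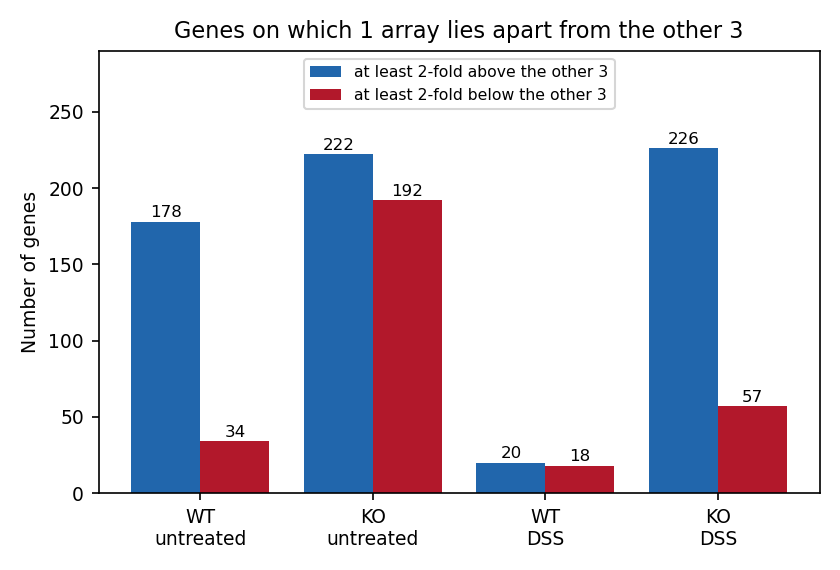
Number of genes (vertical axis, counts) on which each array (horizontal axis) lay at least 2-fold above all of the other 3 arrays (blue bars) or at least 2-fold below them (red bars), out of 12189 genes. The untreated KO array has tall bars on both sides, 222 and 192, while the untreated WT and KO DSS arrays have mainly genes above the others and the WT DSS array has few of either kind.

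The scatter plot of the untreated arrays sets each gene's KO level against its WT level. The 25 genes with the highest differences ranged from 3.67 to 6.64 and were mostly epithelial enzymes, transporters and secreted products. Cyp2c55, a cytochrome P450 of the colon, read 4.49, 11.13, 2.93 and 2.01, the highest difference of all genes (6.64). Cyp2c65, another member of that family, read 3.88, 10.29, 4.83 and 2.38. Osr2, an odd-skipped transcription factor, read 1.16, 7.67, 1.23 and 1.65, and was higher by at least 5.99. These 3 genes were bright on the untreated KO array and low on each of the others.

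Ugt2b5, a glucuronosyltransferase, read 1.06, 7.07, 1.26 and 0.63 and was higher by at least 5.39. Slc51a, a subunit of the basolateral bile acid exporter, read 2.41, 8.27, 2.11 and 1.99. Nts, the gut hormone neurotensin, read 1.92, 7.57, 2.25 and 2.13. All 3 were again low on each of the other arrays. Sptssb, a small subunit of serine palmitoyltransferase, read 3.65, 9.78, 8.81 and 3.09, with the WT DSS array almost as bright as the untreated KO array. Isx, an intestinal homeobox regulator of vitamin A uptake, read 2.69, 8.35, 6.09 and 4.52, and the sulfate transporter gene Slc13a1 read 2.71, 8.55, 5.01 and 2.91, both with the DSS arrays between the untreated ones.

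The remaining high genes were the lectins Reg3g (5.36) and Reg3b (4.41), the carboxylesterases Ces1f (5.35) and Ces1g (4.57), the interferon-induced Ifi44l (5.09) and Gbp2b (3.67), Prap1 (4.76), the amino acid transporter subunit Slc3a1 (4.62), the cGMP-dependent kinase Prkg2 (4.49), the manganese exporter Slc30a10 (4.19), B4galnt1 (4.08), the fatty acid binding protein Fabp2 (3.9), the hexokinase-like Hkdc1 (3.88), Tmigd1 (3.86), the calcium binding protein S100g (3.83) and the alkaline phosphatase Alpi (3.75). Over the 25, the untreated KO array lay at least 2-fold above every other array for 20. The exceptions were Sptssb, whose WT DSS value lay 0.97 below, Reg3g and Reg3b, which were brighter on the WT DSS array, and Ifi44l and Gbp2b, which were brighter on the KO DSS array.

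**Figure D2:**
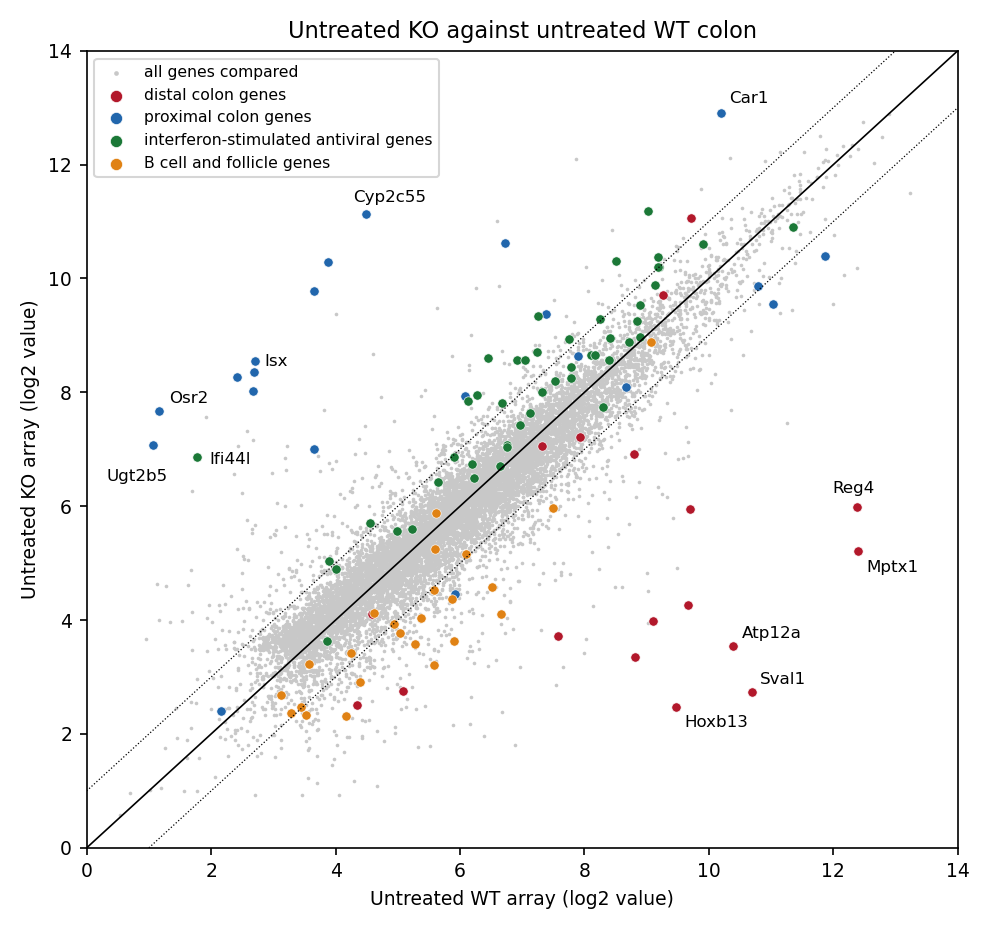
Level of each of 12189 genes on the untreated WT array (horizontal axis, log2) and the untreated KO array (vertical axis, log2), with the solid line at equal levels and dotted lines at 2-fold. Proximal colon genes (blue) such as Cyp2c55 and Osr2 lie above the lines and distal colon genes (red) such as Mptx1, Atp12a and Hoxb13 below them, interferon-stimulated antiviral genes (green) mostly a little above equality, and B cell and follicle genes (orange) below it.

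The 25 lowest differences ranged from -7.96 to -3.74. Sval1 had the lowest (-7.96), and Hoxb13 (-6.99) and Atp12a (-6.85) were close to it. Mptx1, a mucosal pentraxin, read 12.39, 5.21, 10.57 and 10.53. Reg4, a lectin of distal secretory cells, read 12.38, 5.98, 7.59 and 8.37. Insl5, a hormone of colonic endocrine L cells, read 9.10, 3.98, 8.27 and 7.25. Each was lowest on the untreated KO array, and Reg4 was also much brighter on the untreated WT array than on either DSS array.

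Tgm3, a transglutaminase that crosslinks mucus, read 9.67, 4.27, 7.34 and 7.5. Clca4b read 9.02, 3.95, 10.57 and 10.90, and Thbs4, a matrix protein of the thrombospondin family, read 9, 4.83, 8.59 and 8.55. For these genes the untreated WT array and both DSS arrays were all bright, and the low value was that of the untreated KO array alone. A different pattern was seen for Pnliprp2, a pancreatic-type lipase, at 7.99, 3.42, 3.20 and 3.18, for the P450 gene Cyp2f2 at 6.16, 2.17, 1.94 and 1.95, and for Cyp2c68 at 6.96, 3.18, 3.33 and 3.46. These 3 were bright on the untreated WT array and about equally low on the other 3.

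Also among the 25 lowest were Hoxd13 (-5.46), the fucosyltransferase Fut9 (-5.09), the glycosyltransferases B3gnt7 (-4.57) and B3gnt5 (-4.03), the calpain Capn13 (-4.51), the sugar phosphate transporter Slc37a2 (-4.48), the peptide transporter Slc15a1 (-4.41), the ectonucleotidase Nt5e (-4.35), the matricellular gene Ccn3 (-4.29), the actin regulator Cap1 (-3.91), the pump modulator Fxyd4 (-3.86), the trypsin inhibitor Spink1 (-3.80) and the urea cycle enzyme Cps1 (-3.74). Over the 25, the untreated KO array lay at least 2-fold below every other array for 18. Cap1 is expressed in most cells, and it read 8.49, 4.58, 8.70 and 9.78, with a second probe set lower by 4.11.

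The genes that mark position were then taken list by list. The count of each list below is to be read beside the shares over all genes, 3.43% higher and 5.99% lower. A gene bright on 1 array alone passed the filter, so the lists keep such members and leave out those dim on all 4 arrays. The lists of distal and proximal colon genes were drawn up with earlier results of this contrast known, so their counts describe the arrays and are not independent evidence of a direction. Of 18 distal colon genes kept of 20 listed, 13 were at least 2-fold lower (72.2%) and 1 higher (5.56%), with a median of -3.80 (-5.12 with the filter set at the 75th percentile). Beside those already given, Fxyd4, which modulates the sodium pump in the distal colon, read 7.58, 3.72, 4.33 and 6.31. Aqp8, a water channel, read 9.69, 5.95, 9.26 and 7.99. Scnn1g, a subunit of the epithelial sodium channel, read 5.09, 2.76, 2.98 and 3.54.

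Wfdc2 differed by -1.89 and Hoxa13 by -1.84. The peptide hormone gene Pyy (-0.72), the sodium channel subunit gene Scnn1b (-0.48) and the membrane mucin gene Muc4 (-0.26) were lower by under 2-fold. The amino acid transporter gene Slc6a14 (0.44) lay slightly above the WT array, and B4galnt2, a glycosyltransferase, was higher by 1.35. Muc16 was dim on all 4 arrays. The summed linear level of the 18 genes was 19622 on the untreated WT array, 3663 on the untreated KO array, 5954.5 on the WT DSS array and 5245 on the KO DSS array. It was lowest on the untreated KO array and highest on the untreated WT array. A linear sum is weighted towards the brightest members, on the untreated WT array Mptx1 (12.39) and Reg4 (12.38), so it does not describe the list evenly.

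Of 21 proximal colon genes kept of 23 listed, 14 were at least 2-fold higher (66.7%) and 3 lower (14.3%), with a median of 3.35 (1.925 with probe sets shared by several transcripts left out). Car1, the abundant carbonic anhydrase of the colonic surface, read 10.19, 12.90, 10.80 and 10.54. Hoxb6, a central Hox gene, read 3.66, 7.01, 2.66 and 3.04. Fabp2 read 6.72, 10.62, 8.07 and 4.51, and Mep1a, the alpha subunit of the brush border protease meprin, read 7.38, 9.37, 6.08 and 5.08. Slc51b, the partner of Slc51a, was higher by 1.86. All 5 were highest on the untreated KO array.

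Other proximal colon genes did not follow. Ang4 (-1.48), an antimicrobial ribonuclease, Retnlb (-1.47), a goblet cell resistin-like protein, and Nxpe2 (-1.46) were at least 2-fold lower on the untreated KO array. A second Ang4 probe set differed by -3.35. The carbonic anhydrase gene Car4 (-0.92) and the oxidase gene Hao2 (-0.58) were lower by less, while Nxpe4 (0.24) and Mep1b (0.74) were higher by less, and Hoxb7 was dim. The list's summed linear level was 9913 on the untreated WT array, 19967 on the untreated KO array, 10189.7 on the WT DSS array and 4221 on the KO DSS array. The plot of both lists on each array shows how far the members of a list differ among themselves.

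**Figure D3:**
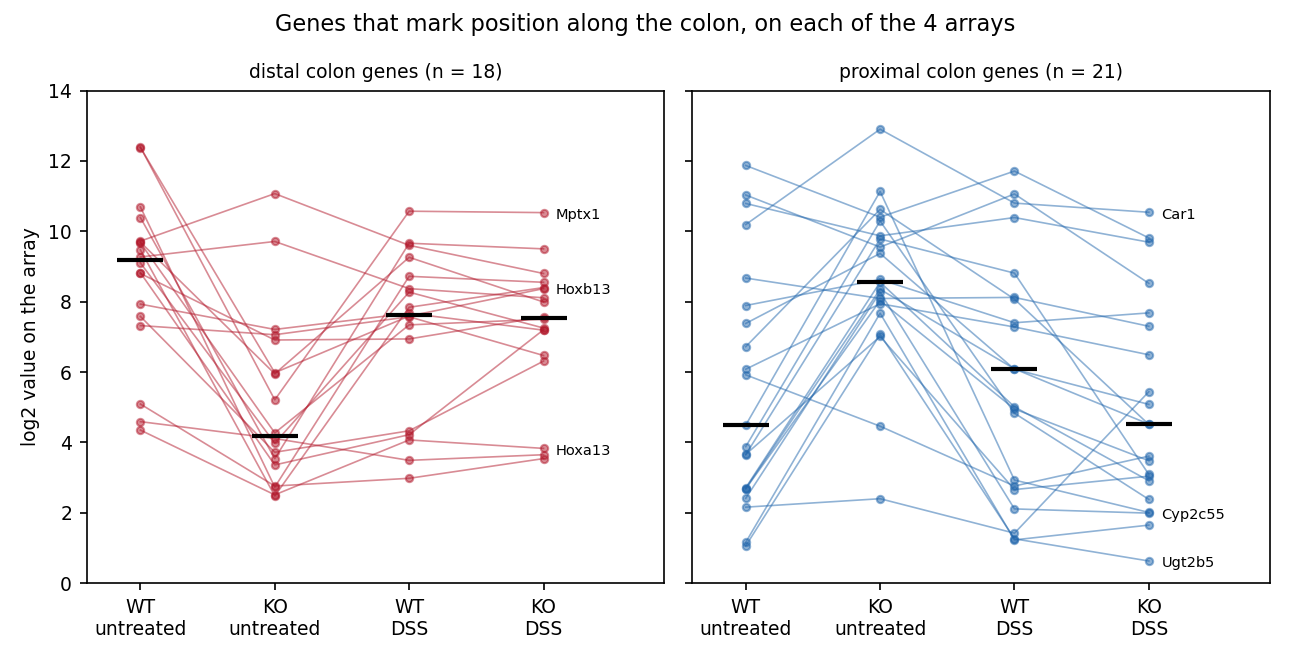
Level (vertical axis, log2) of each distal colon gene (left, 18 genes) and each proximal colon gene (right, 21 genes) on the 4 arrays (horizontal axis), with 1 line per gene and a black bar at the median of the list on that array. Most distal lines dip at the untreated KO array and most proximal lines peak there, with exceptions on both sides such as B4galnt2 (higher by 1.35) and Ang4 (lower by 1.48).

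The Hox genes differed by their place in the clusters. Of 11 posterior Hox genes kept of 14 on the array, 7 were at least 2-fold lower (63.6%) and 1 higher (9.09%), with a median of -1.52. The median was -0.56 without the filter and -2.48 with the filter at the 75th percentile. Hoxd13, the last gene of its cluster, read 8.82, 3.36, 4.22 and 7.20. Hoxa9 read 7.63, 4.79, 7.88 and 7.90, and Hoxa10 read 5.18, 3.06, 5.72 and 5.20. A dimmer Hoxa9 probe set read 5.64, 5.43, 6.03 and 5.71, a difference of -0.21. Hoxa13 (-1.84), Hoxd10 (-1.52) and Hoxd11 (-1.31) were also lower. For Hoxb13, Hoxa9 on its brighter probe set, Hoxa10 and Hoxa13 the untreated KO array lay at least 2-fold below each of the other 3, whereas for Hoxd10 and Hoxd11 the DSS arrays were lower still.

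The other posterior members were Hoxd9 (0.39), Hoxc9 (0.41), Hoxa11 (0.52) and Hoxb9, which was higher by 1.25. Hoxd12, Hoxc13 and Hoxc10 were dim. Of 9 anterior and central Hox genes kept of 19 on the array, 5 were at least 2-fold higher (55.6%) and 1 lower (11.1%), with a median of 1.42 (0.41 without the filter). They were Hoxb6 (3.35), Hoxb5 (1.97), Hoxb4 (1.58), Hoxd8 (1.54) and Hoxb3 (1.42), and for each the untreated KO array lay at least 2-fold above each of the other 3. Hoxb2 (0.35), Hoxa7 (0.03) and Hoxa3 (-0.03) differed by less, and Hoxa5, known from gut mesenchyme, was lower by 1.80 on its brighter probe set and differed by 0.07 on another. Dim members were Hoxa2, Hoxa4, Hoxb1, Hoxb7, Hoxc4, Hoxc5, Hoxc6, Hoxc8, Hoxd1 and Hoxd3. Within the Hoxb cluster, the kept genes from Hoxb3 to Hoxb6 and Hoxb9 were at least 2-fold higher and Hoxb13 lower.

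Transcription factors of gut regions outside the Hox clusters mostly differed little. Of 19 kept of 28 on the array, 4 were at least 2-fold higher (21.1%) and 2 lower (10.5%), with a median of 0.17. Beside Osr2 and Isx, the caudal homeobox gene Cdx2, which directs intestinal identity, read 6.15, 8.4, 7.34 and 6.19, with a second probe set higher by 2.63, and Tbx3 read 2.95, 5.46, 2.66 and 3.07. Klf4, a factor of surface and goblet cells, was lower by 1.11, and the homeobox gene Meis2 by 1.02. Cdx1 (0.24), Hnf4a (0.33), Hnf4g (0.51), Gata6 (-0.07) and Klf5 (0.04) lay within 2-fold. Gata4, which marks the proximal small intestine, Pdx1 of the duodenum and Sox2 and Barx1 of the stomach were dim on all 4 arrays, at 2.56, 2.45, 0.42 and 2.53 on the untreated KO array.

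Enterocyte genes of the small intestine were examined for the same reason. Of 15 kept of 25 on the array, 8 were at least 2-fold higher (53.3%) and 1 lower (6.67%), with a median of 1.10 (0.48 without the filter and 2.02 with it at the 75th percentile). These shares are of the 15 kept genes only, and a member bright on the untreated KO array alone could be kept, which favours the higher share. Alpi, the alkaline phosphatase of the brush border, read 2.49, 6.24, 3.75 and 2.89. Slc3a1 read 2.44, 7.06, 5.91 and 2.56, and its partner Slc7a9 read 2.71, 5.67, 4.50 and 3.5. Slc10a2, the ileal bile acid uptake transporter, read 1.13, 4.64, 1.20 and 0.81, higher by at least 2.96, and passed the filter through the untreated KO array alone. Fabp6, the ileal bile acid binding protein, read 4.13, 6.15, 3.43 and 3.33. All 5 were highest on the untreated KO array.

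Cubn (2.42) and Slc2a5 (1.10) were the other higher members, beside Fabp2. Apob (0.52), Dgat1 (0.50), Enpep (0.40), Slc5a1 (0.20), Clec2h (0.04) and Ada (-0.62) lay within 2-fold, and Slc15a1 was lower by 4.41. Other listed genes of the small intestine, unlike the 8 higher members, were dim on all 4 arrays. Fabp1, its most abundant fatty acid binding protein, read 1.20, 1.96, 0.83 and 0.94. Lct, the lactase gene, read 1.24, 1.35, 1.17 and 1.11, and the apolipoprotein gene Apoa4 read 1.87, 1.87, 1.87 and 1.65. Apoa1, Apoc3, Mttp, Slc2a2, Slc6a19 and Treh were dim as well, between 1.14 and 3.18 on the untreated KO array.

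Of 17 bile acid and nuclear receptor genes kept, 7 were at least 2-fold higher (41.2%) and 1 lower (5.88%), with a median of 0.69. The higher ones include Slc51a, Slc51b, Slc10a2 and Fabp6, already given above. The rest were higher by smaller amounts. Nr1h4, which encodes the bile acid receptor FXR, read 6.51, 7.81, 6.84 and 6.65. The export pump genes Abcb1a and Abcc3 were higher by 1.35 and 1.19, and Abcc4 was lower by 1.02. Fgf15, an ileal hormone induced by FXR, was dim at 2.20, 2.42, 1.89 and 1.98. Of 11 brush border peptidases, Naaladl1 (3.17), Dpep1 (2.11) and Mep1a (1.99) were at least 2-fold higher and Tmprss2 (-1.77) lower, with a median of 0.40. Mep1b (0.74), Xpnpep2 (0.62), Enpep (0.40), Tmprss4 (0.08), Ace (0.01), Anpep (-0.01) and Dpp4 (-0.28) lay within 2-fold.

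Among enzymes of drug and steroid metabolism, phase I genes went both ways. Of 36, 14 were at least 2-fold higher (38.9%) and 9 lower (25%), with a median of 0.52. After Cyp2c55, Cyp2c65, Ces1f and Ces1g, the highest were the retinal dehydrogenase Aldh1a1 (6.62, 9.86, 6.6 and 5.94), Fmo5 (2.79), Ces1e (at least 2.28) and Cyp4b1 (2.45). For all 14, the untreated KO array lay at least 2-fold above each of the other 3. The 9 lower genes had another pattern, since for 0 of them did the untreated KO array lie 2-fold below the other 3. They were brightest on the untreated WT array, as in Cyp2d12 (5.88, 2.15, 2.13 and 2.48) and the alcohol dehydrogenase Adh1 (11.15, 9.39, 9.47 and 10.10), and included Cyp2d10 (-2.64), Cyp2d9 (-2.24), Fmo1 (-1.99), Maob (-1.84) and Cyp2d34 (-1.61).

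Phase II enzymes, which conjugate drugs and hormones, had 7 of 29 members at least 2-fold higher (24.1%) and 0 lower, with a median of 0.10. After Ugt2b5 came Nqo1, a quinone reductase, at 3.9, 6.76, 5.20 and 4.62, Ugt8a (at least 1.99), Ugt2b36 (1.94), the sulfotransferase Sult1a1 (8.06, 9.78, 5.66 and 5.51), Gstk1 (1.17) and Gsta4 (1.07). Of 16 intestinal enzymes of steroid metabolism, 4 were at least 2-fold higher, Akr1c19 (2.83), Hsd3b3 (1.80), Hsd3b2 (1.47) and Akr1c18 (1.36), and 1 was lower, Akr1c14 (-1.01), with a median of 0.55. Fatty acid oxidation, ketone body and PPAR target genes had 7 of 33 higher (21.2%) and 0 lower, with a median of 0.46. They were the peroxisomal thiolase Acaa1b (at least 2.32), Vnn1 (2.82), the lipid sensor Ppara (4.26, 6.25, 3.29 and 2.79), the fatty acid transporter Slc27a4 (1.80), Pparg (1.54), Acads (1.46) and Acaa2 (1.3). For 25 of the 33, the untreated KO array was the highest of the 4.

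Genes of ion, water and short-chain fatty acid transport were divided. Of 37, 7 were at least 2-fold higher (18.9%) and 12 lower (32.4%), with a median of -0.12. The lower side held Clca4b, Slc37a2, Aqp8, the bicarbonate channel Best2 (8.24, 4.89, 4.62 and 5.04), the chloride channel Ano1 (-2.74), Clca3a2 (-2.30), the water channel Aqp4 (9.64, 7.40, 10.20 and 9.31) and the calcium channel Trpv6 (-2.07). The higher side held Slc13a1, the carbonic anhydrases Car12 (4.37, 7.18, 7.03 and 5.27) and Car1, the guanylin hormone Guca2a (10.34, 12.12, 9.50 and 7.85), Aqp1 (1.3), Aqp11 (1.15) and Slc9a2 (1.14). The chloride and bicarbonate exchanger Slc26a3 was lower by 1.90 and the butyrate transporter Slc5a8 by 1.24.

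Of 19 genes of aldosterone-responsive transport, 5 were at least 2-fold lower (26.3%) and 1 higher (5.26%), with a median of -0.23. The lower ones were Atp12a, Fxyd4, Scnn1g, the sodium channel subunit Scnn1a (-1.10) and the kinase Sgk1 (-1.02). The higher one was the glucocorticoid receptor Nr3c1, at 1.12 on its brightest probe set and at 0.89, 0.24 and -0.06 on others, and the mineralocorticoid receptor Nr3c2 (-0.38) lay within 2-fold. Claudins and other tight junction genes had 2 of 17 higher, Cldn15 (1.25) and Cldn4 (1.23), and 2 lower, Cldn8 (8.38, 5.28, 7.62 and 7.25) and Cldn14 (-1.15). Cldn8, which seals the distal colon against sodium, was lowest on the untreated KO array.

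Mucus and goblet cell products were lower as a list. Of 40, 16 were at least 2-fold lower (40.0%) and 3 higher (7.5%), with a median of -0.47. Beyond Sval1 and Tgm3, the lower ones included the lectin Itln1 (7.30, 3.82, 3.59 and 2.32), the sialyltransferase St3gal6 (-3.16, and -3.57, -2.12 and 0.32 on other probe sets), Capn9 (-2.27), the mucin-binding Fcgbp (12.38, 10.18, 11.34 and 10.09), Wfdc2 (-1.89) and the mucus protease Clca1 (13.23, 11.51, 12.33 and 11.11). The glycosyltransferases B3gnt6 (3.44), B4galnt2 (1.35) and Gcnt3 (1.24) were higher. For Itln1, Fcgbp and Clca1 the KO DSS array was lower than the untreated KO array. Of 19 regulators of secretory lineages, 4 were lower by 2-fold or more and 0 were higher, namely Foxa2 (7.33, 4.82, 6.34 and 5.93), Bhlha15 (-1.58), Gfi1 (-1.12) and Klf4, while Atoh1 (-0.19) and Spdef (0.76) lay within 2-fold.

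Enteroendocrine genes were divided by hormone. Of 21, 7 were at least 2-fold higher (33.3%) and 6 lower (28.6%), with a median of 0.12. Insl5 and Tac1, which encodes substance P (7.77, 4.81, 8.14 and 8.49), were lower, as were Scg2 (-1.94), Ddc (-1.23), Cpe (-1.15, and 0.95 on a dimmer probe set) and Rab3c (-1.02). Nts and secretin, Sct (4.94, 7.49, 5.25 and 4.24), were higher, as were the prohormone convertase Pcsk1 (1.76), the serotonin-synthesizing Tph1 (1.66), the granins Chga (1.66) and Chgb (1.37) and Gcg (1.03). The granins and Tph1 were highest on the untreated KO array, while Gcg was highest on the WT DSS array.

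Reg lectins and epithelial antimicrobials also went both ways. Of 28, 6 were at least 2-fold higher (21.4%) and 10 lower (35.7%), with a median of -0.54. Reg3g read 4.01, 9.37, 11.10 and 6.67, and Reg3b read 6.6, 11.01, 11.86 and 7.81. Both lectins, which act on bacteria at the mucosal surface, were high on the untreated KO and WT DSS arrays. Reg3a (at least 2.30), the protease Mmp7 (3.95, 6.66, 3.97 and 4.28), Saa3 (1.89) and Dmbt1 (1.15) were the other higher members. Lower, beside Mptx1, Reg4, Itln1 and Ang4, were Sprr2h (-2.62), the protease inhibitor Slpi (7.25, 5.25, 8.68 and 9.62), the serum amyloids Saa1 (-1.90) and Saa2 (-1.55), Pla2g2a (-1.35) and Duoxa2 (-1.01).

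Genes of fetal-like repair epithelium, a state of regenerating gut, had 9 of 19 members at least 2-fold lower (47.4%) and 2 higher (10.5%), with a median of -0.97. Anxa3 read 9.66, 6.88, 9.33 and 9.62, and Anxa8 read 6.16, 3.55, 8.00 and 8.68. Ptgs2, the inducible cyclooxygenase, read 4.42, 2.24, 5.46 and 7.80. F3 (-1.75), Anxa1 (-1.44), Clu (-1.43), Il1rn (-1.29), Hbegf (-1.24) and Ccn2 (-1.11) were lower too, and Cldn4 (1.23) and Emp1 (1.17, and -0.09 on a dimmer probe set) higher. For 12 of the 19 the untreated KO array was the lowest of the 4. Among immediate-early genes, which respond within minutes to handling and growth signals, 4 of 25 were lower and 0 higher, Fos (10.35, 7.69, 9.90 and 9.39), Egr1 (-1.99), Atf3 (-1.37) and Klf4, with a median of -0.30. Their part in the other differences was not tested.

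Interferon-stimulated antiviral genes were higher on the untreated KO array. These genes encode proteins that sense or block viruses and are induced by type I and type III interferons. Of 47, 18 were at least 2-fold higher (38.3%, against 3.43% of all genes) and 0 lower (against 5.99%), 44 lay above 0 (93.6%, against 48.3%), and the median was 0.69, against -0.01. The untreated KO array was the highest of the 4 for 39 of them. Ifi27l2a read 9.02, 11.18, 8.46 and 8.41. Irf7, the transcription factor that amplifies the interferon response, read 8.50, 10.30, 8.55 and 7.90. Ifit2, which binds foreign RNA, read 6.45, 8.61, 7.90 and 7.83.

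Bst2, which tethers virions, read 6.13, 7.85, 7.43 and 6.49, and Phf11d read 6.28, 7.96, 7.02 and 6.62. Ifit3 (6.92, 8.56, 6.24 and 7.24) was likewise highest on the untreated KO array. Ifi44l had another pattern. It read 1.77, 6.86, 1.37 and 6.93, near background on both WT arrays and bright on both KO arrays, with a difference of 5.09 without DSS and at least 5.25 with DSS, and its other probe set read 1.40, 7.16, 1.33 and 6.81. Xaf1 read 7.26, 9.34, 2.94 and 7.43, with the untreated KO array highest, but its other kept probe set differed by -0.57 without DSS and by -1.05 with DSS. The other 10 higher members were Oas3 (1.53), Usp18 (1.47), Oas2 (1.19), Ifitm3 (1.19), Ddx58 (1.15), Slfn5 (1.15), Mx2 (1.14), Ifit1 (1.03), Lgals3bp (1.01) and Oasl2 (1.00).

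Genes induced mainly by interferon-gamma were higher to a smaller extent. Of 23, 7 were at least 2-fold higher (30.4%) and 1 lower (4.35%), with a median of 0.62. Gbp2b, a guanylate-binding protein, read 3.18, 6.85, 2.02 and 8.39, low on both WT arrays and high on both KO arrays as Ifi44l was. Its relative Gbp2 read 8.41, 6.45, 7.47 and 8.28, a difference of -1.96. The other higher members were the chemokine Cxcl9 (1.28), Socs1 (1.16), Ifi47 (1.15), Iigp1 (1.14), Gbp6 (1.13) and Igtp (1.06). Of these, Cxcl9, Iigp1 and Gbp6 were brighter still on the KO DSS array. Interferons, their receptors and sensors had 1 of 14 higher (7.14%, against 3.43% of all genes), Cgas (1.24), and 0 lower. MHC class I and immunoproteasome genes had 3 of 19 higher, H2-T3 (3.04, 5.59, 3.15 and 3.10), H2-Q10 (1.22) and H2-Q2 (1.10), with 0 lower and a median of 0.59. Cross-hybridization between the near-identical members of the Gbp, Ifit and H2 families cannot be told from these probe sets.

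**Figure D4:**
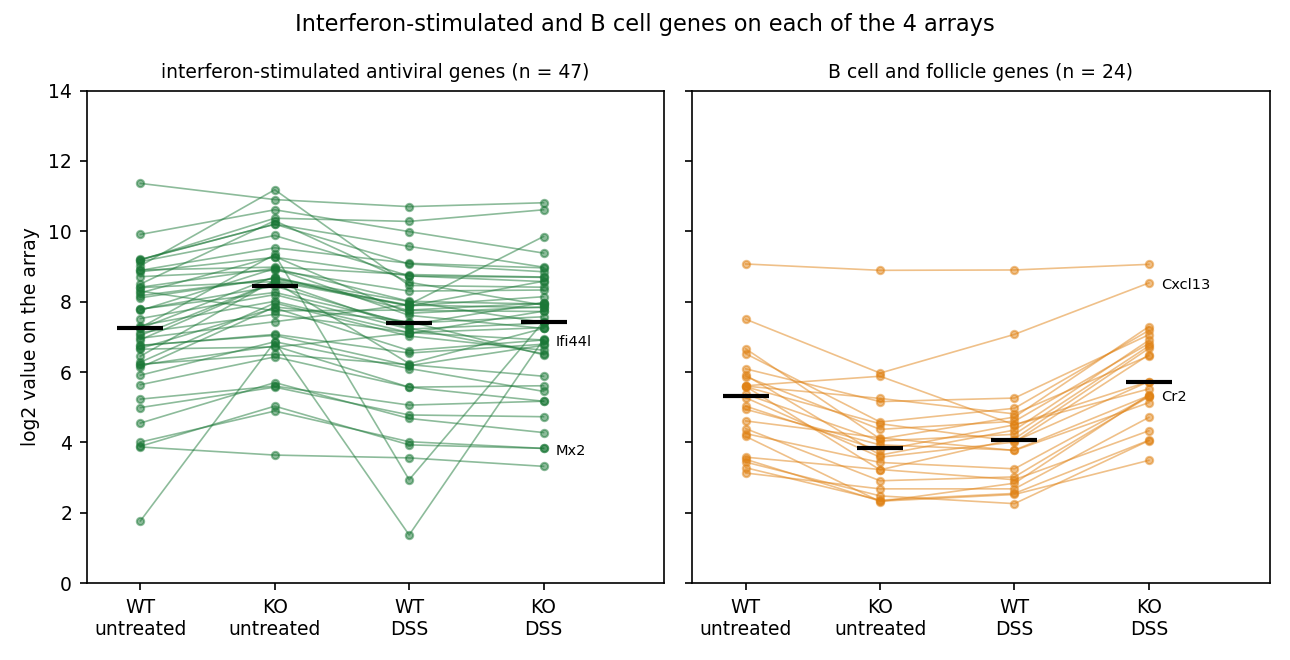
Level (vertical axis, log2) of each interferon-stimulated antiviral gene (left, 47 genes) and each B cell and follicle gene (right, 24 genes) on the 4 arrays (horizontal axis), with 1 line per gene and a black bar at the list's median on that array. The interferon-stimulated genes peak at the untreated KO array, with Ifi44l high on both KO arrays, while the B cell genes are low on the untreated KO and WT DSS arrays and highest on the KO DSS array.

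Because the interferon-stimulated genes were higher together, their promoters were searched for the interferon-stimulated response element, the site through which interferon signalling acts. Its letters, GAAA followed after any 2 bases by GAAA, were looked for on both strands in the 250 bases before the start site in RefSeq promoters of assembly GRCm38.p6. They were found in 3.22% of 9804 genes with a promoter, in 11 of 36 interferon-stimulated antiviral genes (30.6%) and in 9 of 16 interferon-gamma-induced genes (56.2%). Within the antiviral list, 5 of 14 genes at least 2-fold higher held the letters and 6 of 22 under 2-fold (35.7% and 27.3%). The genes below were at least 2-fold higher and are shown as examples of the element, in the direction of the gene with the matching letters in capitals. They come from chr3:142594690-142594739 on the plus strand (Gbp2b), chr19:34583387-34583436 on the plus strand (Ifit3), chr8:71537567-71537616 on the minus strand (Bst2), chr5:120777705-120777754 on the minus strand (Oas3), chr11:58199502-58199551 on the plus strand (Igtp) and chr19:34640784-34640833 on the plus strand (Ifit1).
Gbp2b: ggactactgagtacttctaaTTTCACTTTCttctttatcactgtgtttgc
Ifit3: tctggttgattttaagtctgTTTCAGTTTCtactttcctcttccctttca
Bst2: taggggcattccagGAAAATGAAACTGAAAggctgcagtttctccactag
Oas3: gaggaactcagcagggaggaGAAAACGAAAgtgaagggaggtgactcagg
Igtp: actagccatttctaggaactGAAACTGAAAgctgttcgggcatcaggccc
Ifit1: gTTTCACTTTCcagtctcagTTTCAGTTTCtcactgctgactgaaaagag
The matches lay 24 to 127 bases before the start site. Bst2 holds overlapping copies and Ifit1 a pair. Ifi44l and Ifit2 held no match in this window, which says only that these letters are not in it, and Ifi27l2a was not analysed.

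The promoters of the 25 highest genes were searched for the letters TTTATNG, bound by Cdx factors, because Cdx2 itself was higher. They were also searched for CAAAGTCCA, bound by HNF4 factors, both on either strand. The Cdx letters were in 8 of 20 promoters (40.0%), against 2 of 19 of the 25 lowest genes (10.5%) and 7.88% of all. With A in the open place they hold the TATA box letters TATAAA on the other strand, as in Reg3g, Ces1g and Alpi, where the match lay 19 to 26 bases from the start site. TATAAA itself was in 8 of the 20 promoters (40.0%) and in 8.52% of all. Over all 418 higher genes the Cdx letters were in 11.8% of promoters, and over all 730 lower genes in 11.4%. The stricter letters TTTATTG, chosen after the values were seen, were in 5 of the 20 and in 2.97% of all. They were in 0 of 19 promoters of the 25 lowest genes. Over all 418 higher genes they were in 4.23% of promoters, and over all 730 lower genes in 3.85%. The 5 were Cyp2c55, Slc3a1, Fabp2 and the interferon-induced Ifi44l and Gbp2b. Cyp2c55, Slc3a1 and Fabp2 are shown as members with that form, from chr19:39006769-39006813, chr17:85028254-85028300 and chr3:122894987-122895033, all on the plus strand.
Cyp2c55: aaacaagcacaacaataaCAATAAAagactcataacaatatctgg
Slc3a1: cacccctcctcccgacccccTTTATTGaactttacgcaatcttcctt
Fabp2: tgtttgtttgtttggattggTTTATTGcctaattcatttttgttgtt
The HNF4 letters were in 3 of the 20 promoters (15%), in 1 of 19 of the 25 lowest genes (5.26%) and in 0.53% of all. Over all 418 higher genes they were in 1.81% of promoters, and over all 730 lower genes in 0.916%. They are shown for Cyp2c65 from chr19:39060870-39060918 on the plus strand and for Alpi from chr1:87101607-87101645 on the minus strand, where they do not overlap the Cdx letters.
Cyp2c65: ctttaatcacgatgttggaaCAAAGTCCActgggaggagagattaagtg
Alpi: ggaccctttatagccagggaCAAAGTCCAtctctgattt
These matches are descriptions of sequence, and binding was not measured.

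B cell and follicle genes were lower on the untreated KO array. Of 24, 14 were at least 2-fold lower (58.3%, against 5.99% of all genes) and 0 higher (against 3.43%), 23 lay below 0 (95.8%, against 50.7%), and the median was -1.12, against -0.01. Ms4a1, the B cell antigen CD20, read 6.66, 4.10, 4.72 and 7.29. Cd79b, a subunit of the B cell receptor, read 5.91, 3.64, 4.35 and 6.90, and Cxcl13, the chemokine that gathers B cells in follicles, read 7.5, 5.97, 7.07 and 8.53. For all 3 the untreated KO array was lowest and the KO DSS array highest.

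Fcmr (-2.37), Pou2af1 (-1.94), the complement receptor Cr2 (-1.85), Btla (-1.69) and Cd79a (-1.5) were among the other lower members. The list's summed linear level was 1569.9 on the untreated WT array, 906 on the untreated KO array, 977 on the WT DSS array and 2394.5 on the KO DSS array. In a piece of colon, fewer cells of a type and less RNA per cell cannot be told apart. Of 18 plasma cell genes, 3 were lower, Ighm (9.20, 7.52, 8.69 and 9.28), Mzb1 (-1.63) and Jchain (-1.11), and 0 higher, with a median of -0.65. The heavy chain gene Ighm is uncertain, since its other probe sets, some of which can match several antibody transcripts, differed by -2.19, -2.17, 0.70, 1.36, 1.37, 1.45 and 1.73. MHC class II presentation genes had a median of 0.09 over 18 genes, with H2-DMa (1.12) higher and the B cell gene H2-Ob (5.43, 2.49, 3.04 and 6.26) lower.

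T cell and cytotoxic lymphocyte genes lay slightly higher, with 5 of 28 at least 2-fold higher (17.9%), 1 lower (3.57%) and a median of 0.44. The granule protease Gzmb read 4.73, 6.40, 5.18 and 5. Klrk1 (1.39), Nkg7 (1.16), Cd96 (1.15) and Il2rb (1.09) were higher and Cd28 (-1.24) lower. The summed linear level of the 28 was 619 on the untreated WT array, 874 on the untreated KO array, 561 on the WT DSS array and 636 on the KO DSS array. Their part in the interferon-gamma-induced genes was not tested.

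Macrophage and neutrophil lists also lay slightly higher, with few members 2-fold apart. Of 24 macrophage, monocyte and dendritic cell genes 1 was higher (4.17%), Mertk (1.29), and 0 lower. Their median was 0.39, and 79.2% lay above 0, against 48.3% of all genes. Of 14 neutrophil genes 2 were higher (14.3%), Fpr2 (1.57) and Mmp8, and 0 lower, with a median of 0.24 and 78.6% above 0. Mmp8 read 1.44 and 2.46 on the untreated arrays, and since its WT value was not above background it was higher by at least 0.78, which does not reach 2-fold. Of 8 mast cell and eosinophil genes, the mast cell proteases Mcpt2 (-1.59), Mcpt1 (-1.52) and Cma1 (-1.46) were lower, with Cpa3 (-0.35), Gata2 (0.21), Kit (0.33) and Hdc (0.77) within 2-fold and Il5ra not above background on either untreated array. Among 26 chemokines, 4 were higher, Ccl12 (2.47), Cxcl9 (1.28), Ccl9 (1.24) and Ccl25 (1.16), and 4 lower, Ccl28 (-1.87), Cxcl13 (-1.53), Ccl20 (-1.49) and Cxcl5 (at least -1.02), with a median of 0.14. Of 12 inflammatory cytokine genes 2 were lower and 0 higher. Il18, made by colonic epithelium, read 8.54, 5.52, 8.88 and 8.66, and Il1rn differed by -1.29, while Il33 (-0.94), Tnf (-0.14), Il1b (-0.03), Tgfb1 (0.04), Il11 (0.18), Csf1 (0.18), Osm (0.35), Lif (0.40) and Csf3 (0.72) lay within 2-fold, and neither untreated array read Il6 above background.

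Genes of the gut wall were lower in part. Smooth muscle genes had 6 of 23 lower by 2-fold or more (26.1%) and 0 higher, the median being -0.70. Synm, an intermediate filament protein, read 7.90, 5.83, 6.41 and 6.72, Cald1 read 9.84, 8.39, 9.35 and 10.53, and Cnn1 (-1.35), Hand2 (-1.23), Tagln (-1.21) and Actg2 (-1.07) were also lower. The summed linear level of this list was 14949.7 on the untreated WT array, 8347 on the untreated KO array, 10108 on the WT DSS array and 12313 on the KO DSS array. Of 23 enteric neuron and glia genes, 0 were higher and 5 lower (median -0.33, and -1 with the filter at the 75th percentile), namely Scg2, the neuropeptide Vip (7.91, 6.30, 6.75 and 8.71), Snap25 (-1.45), Gap43 (-1.23) and Uchl1 (-1.14). How much muscle lay in each piece of colon is not recorded in the labels, and the part of this in the other differences was not tested.

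Among stromal Wnt, R-spondin, BMP and Fgf signals, 7 of 25 were lower (28.0%) and 1 higher (4%), the median being -0.50. Bmp2 read 8.12, 5.19, 6.54 and 7.28, and Fgf13 read 4.42, 1.93, 3.98 and 5.65. Chrdl1 (-1.23), Fgf7 (-1.23), Hhip (-1.22), Rspo3 (-1.12) and Wnt5a (-1.03) were lower and the epithelial morphogen Shh (1.48) higher. Of 31 collagen and fibroblast genes, 2 were higher (6.45%), Dpep1 (2.11) and Col8a1 (1.24). Another 2 were lower (6.45%), Gsn (-1.42) and Pdgfrb (-1.23). The median was -0.10, and the shares over all genes were 3.43% and 5.99%. Of 8 interstitial cell and mesothelial genes, Thbs4, Ano1 (-2.74) and Gpm6a (at least -2.02) were lower, with Msln (-0.97), Upk3b (-0.38), Krt19 (0.21), Kit (0.33) and Upk1b (0.88) within 2-fold.

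Genes related to the targeted protease lay close to the WT array. Of 25 matrix metalloproteases, TIMPs and ADAMTS genes kept of 39 on the array, 3 were higher (12%) and 1 lower (4%), with a median of 0.07. Mmp7 (2.71) and Adamts4 (1.96, 3.11, 3.89 and 4.62) were higher, and the third counted was Mmp8, whose bound of at least 0.78 does not reach 2-fold. A dimmer Adamts4 probe set was not above background on either untreated array. Adamts15, another matrix-cleaving member of the family, was lower, at 5.86, 3.85, 4.35 and 5.09. Of 24 cartilage-type matrix and proteoglycan genes, a list that holds substrates of the family, 3 were lower, Thbs4, Matn2 (-1.45, and -0.23 on a dimmer probe set) and Fn1 (-1.28), and 0 higher, with a median of -0.14.

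The genes beside Adamts12 in gene order were also read. Of 10 on either side, 15 were kept, with 1 at least 2-fold higher, C1qtnf3 (3.05, 4.52, 1.10 and 1.39), and 1 lower, Pdzd2 (5.31, 4.21, 4.14 and 4.36), and a median of -0.40. On the 5′ side of the gene order Amacr (-0.83), Brix1 (-0.52), Dnajc21 (-0.40), Rad1 (-0.12), Rai14 (0.28) and Slc45a2 (0.53) lay within 2-fold. On the other side Golph3 (-0.70), Sub1 (-0.60), Zfr (-0.52), Drosha (-0.44), Tars (-0.24), 6030458C11Rik (-0.24) and Mtmr12 (-0.04) did. Agxt2, Ttc23l, Npr3 and Cdh6 were dim, and Rxfp3 was not analysed.

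Lists of general cell function had few members 2-fold apart. Of 34 respiratory chain subunits and 15 housekeeping genes, 0 were 2-fold apart either way, with medians of 0.20 and -0.05. Of 30 genes of DNA replication and mitosis, 1 was lower, Ccne2 (-1.05), and 0 higher, with a median of 0.14. Stem and crypt base genes differed more. Of 22, 4 were higher (18.2%, against 3.43% of all genes), Tnfrsf19 (1.34), Aqp1 (1.3), Prom1 (1.06) and Axin2 (1.03), and 0 lower. Their median was -0.05, with Lgr5 at -0.05. The plot of the lists sets those of general cell function beside the shifted ones.

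**Figure D5:**
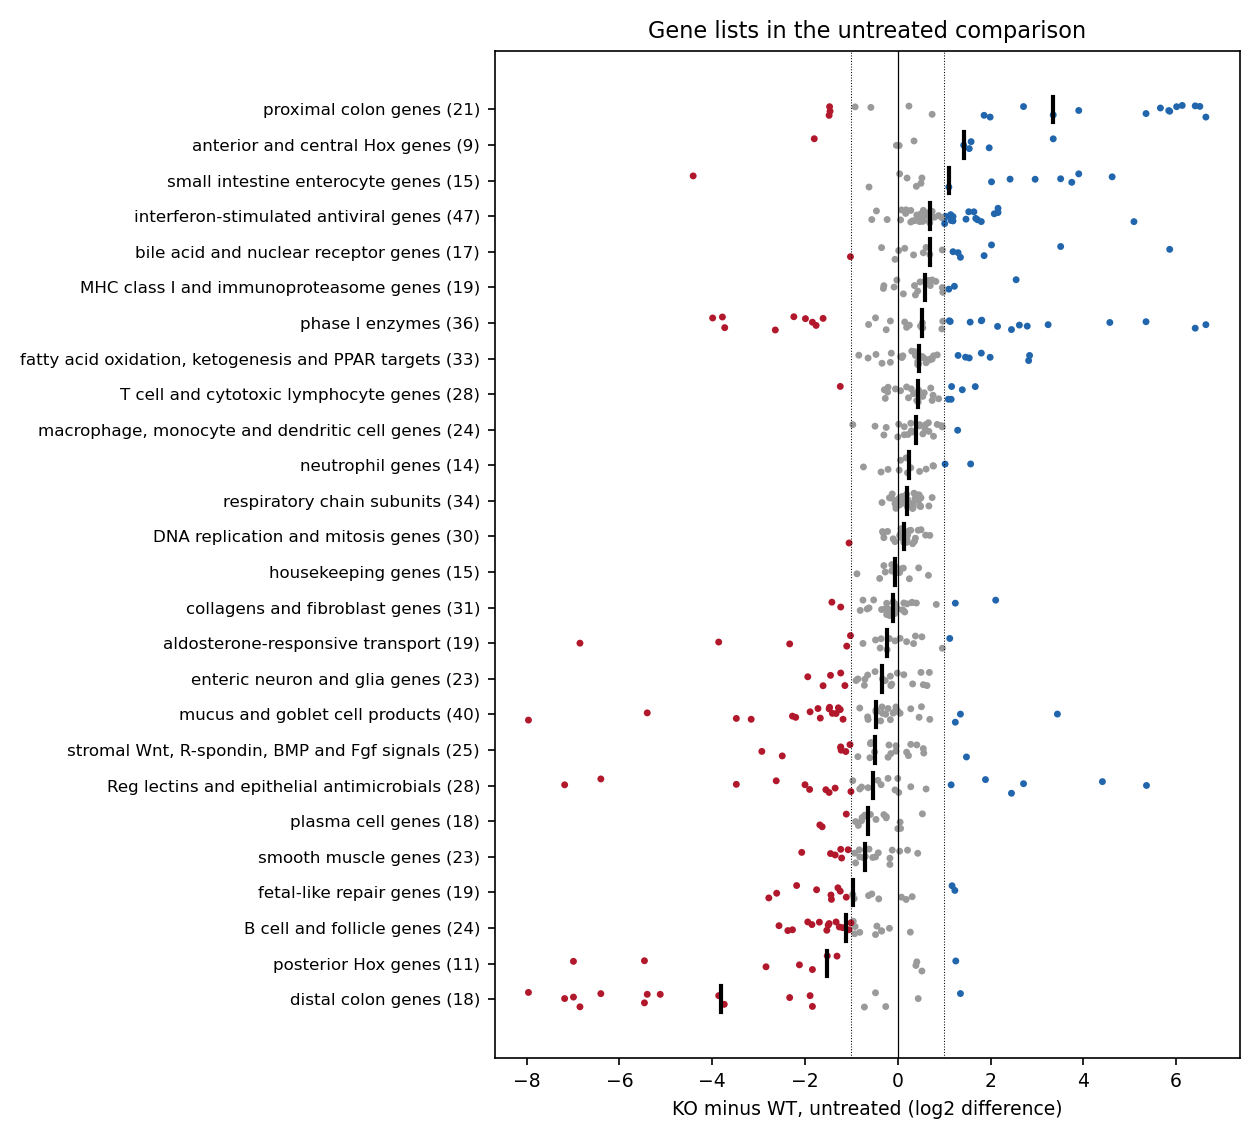
KO minus WT difference without DSS (horizontal axis, log2) of every kept member of the gene lists shown (vertical axis, number of members in brackets), with 1 point per gene, blue at least 2-fold higher, red at least 2-fold lower and grey between, and a black bar at the list's median. Distal colon genes and posterior Hox genes lie lowest, with medians of -3.80 and -1.52, proximal colon genes highest at 3.35, and housekeeping and respiratory chain genes close to 0.

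The same genotype comparison was available in the DSS arrays, which share no array with the untreated pair. There 514 genes were at least 2-fold higher in KO (4.22%) and 147 lower (1.21%). Of the 418 genes higher without DSS, 24 were also higher with DSS (5.74% of the 418 and 4.67% of the 514), 47 were lower (11.2% of the 418 and 32% of the 147), and 347 lay under 2-fold (83%). Of the 730 lower without DSS, 29 were also lower with DSS (3.97% of the 730 and 19.7% of the 147), 106 were higher (14.5% of the 730 and 20.6% of the 514), and 595 lay under 2-fold (81.5%). By count, differences in the opposite direction were more numerous than those in the same direction on both sides. The shares over all genes with DSS were themselves unequal, at 4.22% higher and 1.21% lower. For the 418, 5.74% were also higher, against 4.22% of all genes, and 11.2% were lower, against 1.21%. For the 730, 3.97% were also lower, against 1.21%, and 14.5% were higher, against 4.22%. On the lower side both directions thus exceeded the share over all genes by a similar factor.

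Genes with the same direction in both pairs, ranked by the smaller of their differences, were led by Ifi44l and Gbp2b. The others named in this paragraph were chosen after their values were seen. Tmem87a, a membrane protein of the Golgi, read 3.45, 6.03, 3.10 and 5.71, with differences of 2.58 without and 2.61 with DSS. Taf15, an RNA-binding protein, read 4.54, 2.25, 4.85 and 2.24, with differences of -2.29 and -2.61. Pla2g4c, a phospholipase, read 8.37, 5.80, 6.43 and 2.40, with differences of -2.57 and -4.03. For Ifi44l, Gbp2b, Tmem87a and Taf15 the WT arrays lay together on one side and the KO arrays on the other, without overlap, whereas most genes above had the untreated KO array apart from the KO DSS array. Ifi213, an interferon-inducible gene, was higher by 3 and 1.95, and Ccn3 differed by -4.29 and -1.97.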

How the data were processed

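Gene expression was measured on 4 Affymetrix mouse arrays, 1 per mouse and group, and groups were taken from the titles in the labels. Per the labels' protocols, biotinylated cRNA was made from total RNA, and the authors deposited 1 log2 value per probe set and array (0.16 to 13.23). That the scale is log2 was read from the values, since a natural log would put the highest at 556821, above the 65535 of a 16-bit scanner, and log2 puts it at 9608. The summarization, normalization, scan and batch are not given in the sources used here, and no detection calls or scanner files were used, so the number of arrays limits the precision. The array medians were 3.43, 3.46, 3.42 and 3.43, and values were used as deposited.

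Probe sets were named from the platform annotation, with symbols updated by gene number through a RefSeq table of assembly GRCm38.p6 (34741 of 34945 matched). Those of several genes (932) and 64 controls were left out. Kept probe sets lay above the array median on at least 1 array, and 5418 genes had more than 1. Differences were taken between single arrays, with a 2-fold threshold and no test. Promoters and their coordinates are RefSeq's, from the same assembly, while the annotation names no build of its own.

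The members of the comparison and 56 gene lists (1551 entries) were chosen with earlier results of these data known, and the background limit of 1.68 after the values were seen. Genes named were Adamts12, the 25 highest and 25 lowest differences among genes with a name of their own, up to 8 members at least 2-fold apart from each list described (all where 12 or fewer were kept, and all of the Hox, colon and small intestine lists), and 10 genes on either side of Adamts12. Other genes named for being within 2-fold were given as counterexamples. Lists share genes. Alternatives were quantile normalization, median centring, other filters, other probe sets for a gene, a 4-fold threshold, a floor at background and the WT DSS array as control. The code was tested on simulated data. Python 3.11.15 was used with numpy 2.4.6, pandas 2.3.3, scipy 1.17.1 and matplotlib 3.10.9.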

Additional observations from a re-analysis of the deposited data

Results flagged for a closer look

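The KO minus WT difference was at least 2-fold in opposite directions without and with DSS for 15 of the 50 genes ranked highest and lowest, with 1 array in each group, and the difference between the pairs was not tested. Among genes higher in KO without DSS, the differences with DSS were -5.72 for Sptssb, -4.43 for Reg3g, -4.05 for Reg3b, -3.56 for Fabp2, -3.35 for Slc3a1, -2.45 for Cyp2c65, -2.10 for Slc13a1, -1.84 for S100g, -1.65 for Tmigd1, -1.57 for Isx and -1.47 for Ces1f. Among genes lower in KO without DSS, they were 2.98 for Hoxd13, 1.98 for Fxyd4, 1.33 for Nt5e and 1.08 for Cap1. The medians of 3 lists likewise lay on opposite sides. That of the proximal colon genes was 3.35 without and -0.82 with DSS, that of the fetal-like repair genes -0.97 and 1.17, and that of the B cell and follicle genes -1.12 and 1.80.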

How the results depend on the processing

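Under the other scalings, filters, rules for a gene's probe set and a floor at background, the count of genes at least 2-fold higher lay between 305 and 492 and of those lower between 533 and 773, all within 1.5 times the main counts. The 4-fold threshold gave 102 and 144. The median of all genes moved by less than 0.1 under each scaling. Of 54 list medians, quantile normalization, median centring, the filter on both untreated arrays and the mean over probe sets moved 0 by more than 1.5-fold. Without the filter the median was -0.56 for posterior Hox genes, 0.41 for anterior and central Hox genes and 0.48 for small intestine enterocyte genes, and turned to 0.08 for exocrine pancreas genes. With a filter at the 75th percentile it was -2.48 for posterior Hox genes, -5.12 for distal colon genes, 2.02 for small intestine enterocyte genes, -1 for enteric neuron and glia genes and -2.665 for exocrine pancreas genes. With probe sets shared by several transcripts left out it was 1.925 for proximal colon genes and -1.905 for exocrine pancreas genes. The last 2 settings keep fewer genes, and the cause was not tested further. Medians over fewer than 5 genes were not computed. With the WT DSS array as control, 9 of the 50 ranked genes stayed within 1.5-fold of their difference and 4 turned, Pnliprp2 to 0.22, Cyp2f2 to 0.23, Reg3b to -0.85 and Reg3g to -1.73. Counts with that control, an alternative chosen after seeing the data, were 608 higher, 253 of them among the 418, and 932 lower, 230 of them among the 730. No paired analysis was possible because each group holds 1 array, and no replicate could be left out. Signal over background limits the dim genes, among them Adamts12.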

Other observations

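Exocrine pancreas genes, which mark a neighbouring tissue and of which some are also made by colonic epithelium, had 5 of 11 kept members at least 2-fold lower on the untreated KO array and 0 higher, with a median of -0.64. The median turned to 0.08 without the filter. Pnliprp2 (-4.57), Spink1 (-3.80), Sycn (-2.84), Cela1 (-2.67) and Clps (-2.66) were lower. Prss2 (0.96), Ctrb1 (0.67), Cela3b (0.29), Ctrl (0.12), Klk1 (-0.45) and Zg16 (-0.64) were within 2-fold. Clps read 8.83, 6.17, 4.84 and 4.33 and Sycn 9.18, 6.34, 7.62 and 6.45 (untreated WT, untreated KO, WT DSS, KO DSS). The list's summed linear level was 13787 on the untreated WT array, 6745.5 on the untreated KO array, 7379 on the WT DSS array and 6137 on the KO DSS array. The part of this in the other differences was not tested. Stratified squamous genes of the anal canal and skin had 0 of 7 kept members 2-fold apart, with Krt6a at 0.44 and Dmkn at -0.52.

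Adipocyte genes had 4 of 19 members at least 2-fold higher and 0 lower, with a median of 0.33. Lpl read 4.27, 6.32, 5.68 and 6.66, Adipoq 2.50, 4.54, 5.01 and 2.14, and Pparg (1.54) and Dgat2 (1.51) were the others. Among 24 endothelial and lymphatic genes, 2 were lower (8.33%, against 5.99% of all genes) and 0 higher. They were Glycam1 (3.98, 2.06, 3.18 and 4.28), a ligand of lymphocyte homing, and Lyve1 (-1.51, and -0.21 on a dimmer probe set). Of 12 tuft cell genes, only Rgs13 was lower (-1.26, 8.33% of the list), and Dclk1 (-0.68) and Trpm5 (-0.16) were within 2-fold. Sphingolipid synthesis genes had 2 of 27 higher (7.41%, against 3.43% of all genes), Sptssb and Ugt8a, and 0 lower.

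Of 17 heat shock genes, Hsph1 was higher (1.25) and Hsp90b1 lower (-1.23), and of 17 circadian clock genes Ciart was higher (1.04) and Clock lower (-1.21). In both lists the shares were 5.88% each way, against 3.43% and 5.99% of all genes. Probe sets with no gene or several genes were not used above. Of 3473 that passed the same filter, 77 were at least 2-fold higher and 234 lower on the untreated KO array, with differences from -5.71 to 5.16. Over the genes compared, the shares were 3.43% higher and 5.99% lower. The imprinted neighbours Dlk1 (5.35, 3.70, 6.35 and 4.35) and Meg3 (7.61, 6.01, 9.43 and 7.31) were lower in KO without and with DSS, Meg3 on its brightest probe set. Of 10 other Meg3 probe sets without DSS, 7 differed by -1.54 to -0.46 and 3 by 0.08 to 0.16. They were named after their values were seen.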
